A study of Mus musculus with 6 samples.

Results

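The genes described here encode 10 interleukin receptor chains of D10 T cells, with Il2ra, the alpha chain of the IL-2 receptor, at their head. They are Il2ra, Il2rb, Il2rg, Il4ra, Il7r, Il9r, Il21r, Il10ra, Il18r1 and Il1rl1, found by gene symbol among the 41079 genes of the deposited table. All 10 were listed once. The set was chosen by the TPM values and fold changes of these same libraries between 26°C and 37°C, so the change of the 10 genes is given as a description, without a p-value. D10 is a cloned mouse helper T cell line that recognises a peptide of chicken conalbumin. The non-acclimated group holds 3 replicates kept at 37°C for 24 h, and the cold-acclimated group holds 3 replicates kept at 26°C for 24 h. No allele or drug was used, and all 6 libraries come from the same line. The study's methods describe a medium with added IL-2, whereas the sample labels describe another medium and do not mention IL-2. The labels call the replicates biological and mention RNA extracted in independent batches, but assign no library to a batch.

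Interleukin receptors are assembled from chains that are made separately. The IL-2 receptor has an alpha chain (CD25, from Il2ra) that raises the affinity for IL-2 and does not signal, and a beta chain (Il2rb) and a common gamma chain (Il2rg) that do. The common gamma chain also pairs with the receptors for IL-4, IL-7, IL-9 and IL-21, and these complexes signal through JAK1 and JAK3 to STAT proteins, whereas the IL-10 receptor uses JAK1, TYK2 and STAT3. IL-18 and IL-33 act through receptors of the IL-1 family, which recruit MYD88 and IRAK kinases. In activated T cells IL-2 itself, through STAT5, keeps Il2ra transcribed.

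Values are TPM, a measure of transcript abundance per length in which every library is scaled to the same total, so that levels can be compared between genes. The reads behind them were recovered from the steps of the values, and the libraries held between 16899628 and 31290854 reads on genes. Genes averaging at least 1 TPM were tested with limma, and a gene is named called where its adjusted p was under 0.05 and its log2 fold change was 1 or more in either direction. Of the T cell markers, Cd3e had 874, 575 and 640 TPM in the non-acclimated replicates 1, 2 and 3 and 761, 484 and 476 TPM in the cold-acclimated ones, and Gata3, the Th2 lineage factor, was at 387 TPM or more in each library. Cd4, which the labels name as the cell type, had 1.09, 0.0351 and 310 TPM without and 1.30, 0.352 and 328 TPM with cold acclimation. The Cd4 transcript was thus near 0 in both libraries of replicates 1 and 2, against the label, and abundant in both of replicate 3, and Cd5 was at 0 in 5 libraries and rested on 1 read in the other. Of 10 T cell markers, 9 reached a mean of 1 TPM, and limma called 0 of them, with 1, the adaptor gene Lat, at an unadjusted p under 0.05 and called upregulated by voom. Cd3d had 332, 64.3 and 240 TPM without and 304, 78.6 and 243 TPM with cold acclimation. Cd28 had 54.5, 7.35 and 53.6 TPM without and 27.9, 5.61 and 36.2 TPM with it. Replicate 2 was thus the lowest for Cd3d and Cd28 at both temperatures, and no fit left out both of its libraries. Replicate 3 stood apart in Cd4 and in several of the receptors, so changes of the tested receptors are given with and without its 2 libraries. The deviations of libraries from their condition's mean correlated at 0.48, 0.503 and 0.512 between libraries of the same replicate number and at 0.019 or less between different numbers, so each cold-acclimated library is set beside the non-acclimated library of its number.

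Most markers of other cells that could carry these receptors were low, but Hba-a1 reached 485 TPM and Fcer1a 25.3 TPM. All 8 B cell markers stayed under 1 TPM, and their sum was 0.337 to 1.26 TPM at 37°C and 0.125 to 1.07 TPM at 26°C. Of the 8 mast cell and basophil markers, Kit, Gata2, Ms4a2 and Tpsb2 were at 0 in every library, and the sum of 8.79 to 27.8 TPM at 37°C and 11.5 to 27.6 TPM at 26°C came mostly from Fcer1a. The macrophage and monocyte list summed to 2.46 to 15.9 TPM and 2.69 to 21.2 TPM, with the highest values in replicate 3 (Lyz2 11.6 and 14.8 TPM), and Csf1r was at or near 0 throughout. Dendritic cell markers summed to at most 6.16 TPM and CD8 T and NK cell markers to at most 10.1 TPM, with Cd8a at 0. In the erythroid list Hba-a1 had 79.9 to 485 TPM at 37°C and 60.8 to 473 TPM at 26°C, highest in replicate 3, while Hbb-bs and Hbb-bt were at 0. Limma and voom called 0 genes of these lists, with 0 at an unadjusted p under 0.05, and whether these markers have a part in the results on the receptors was not tested. Of all tested genes, limma called 16% downregulated and 2.63% upregulated. Without replicate 3 the dendritic cell marker Itgax was called downregulated, beside 25.5% of all tested genes.

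**Figure D1:**
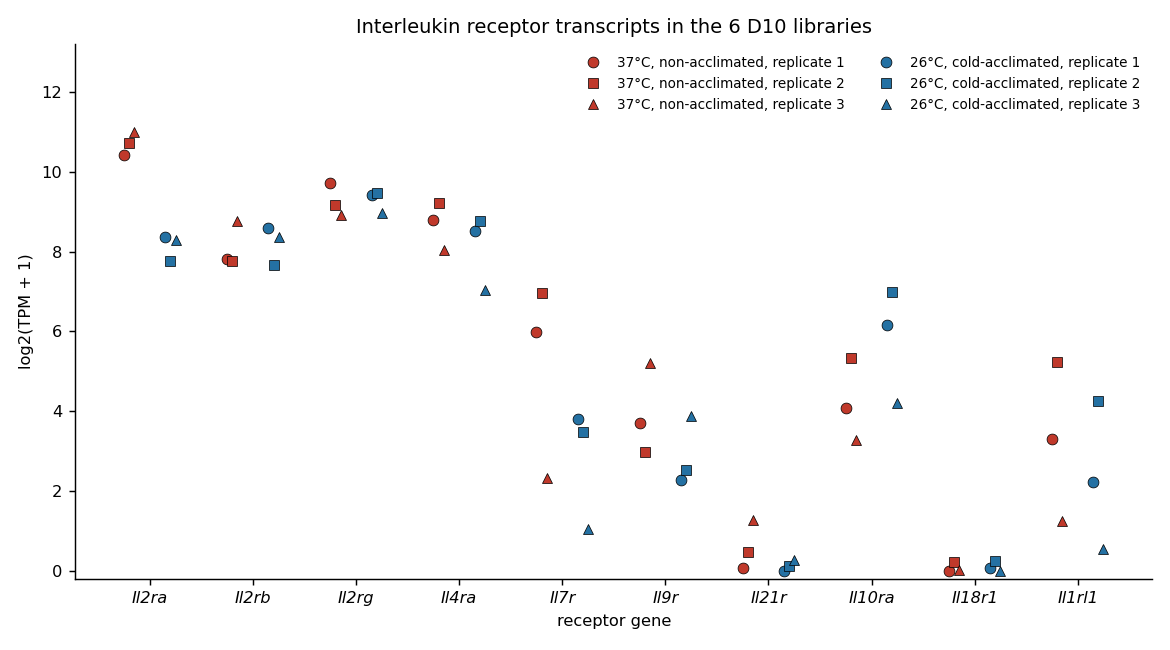
Level of each receptor gene as log2(TPM + 1), 1 point per library, red for 37°C and blue for 26°C, with circles, squares and triangles for replicates 1, 2 and 3. Il2ra is the only gene of the 10 whose conditions do not overlap, and the triangles of replicate 3 lie far below the other replicates for Il7r and Il1rl1 at both temperatures.

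At 37°C Il2ra was the most abundant of the 10 transcripts, with 1687 ± 333 TPM (SD, n = 3), and its lowest library lay above the highest of any other member. Il2rg followed with 631 ± 183, Il4ra with 432 ± 165 and Il2rb with 291 ± 123 TPM, and each of these overlapped its neighbour in this order. Below them came Il7r (63.1 ± 59.5 TPM), Il10ra (21.3 ± 15.9), Il9r (18.2 ± 15.4) and Il1rl1 (15.7 ± 18.7), which overlapped one another, and then Il21r (0.62 ± 0.717) and Il18r1 (0.0611 ± 0.0922). At 26°C the order was led by Il2rg (631 ± 116 TPM), whose libraries lay above those of Il4ra (310 ± 158). Il4ra, Il2rb (304 ± 92.7) and Il2ra (286 ± 59.9) overlapped, and Il10ra (71.2 ± 54.3) had become the fifth. Il7r (8.08 ± 6.24), Il9r (7.44 ± 5.44) and Il1rl1 (7.43 ± 9.45) were close together, and Il21r (0.0945 ± 0.104) and Il18r1 (0.0805 ± 0.103) remained the lowest.

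Il2ra lies on chromosome 2 of GRCm39 (11647603 to 11698005, plus strand). It had 1360, 1674 and 2026 TPM in the non-acclimated replicates 1, 2 and 3, and 327, 217 and 313 TPM in the cold-acclimated ones. Every cold-acclimated library was thus below every non-acclimated one, and the gap held in replicate 3 as in the others. Within replicate numbers the level at 37°C was 4.16, 7.72 and 6.48 times that at 26°C. The fitted log2 fold change of 26°C over 37°C on log2(TPM + 1), here log2FC, was -2.56 with a standard error (SE) of 0.27, and it was -2.50 without the libraries of replicate 3. These values rest on 8647 to 107930 reads per library. In bulk RNA fewer cells with a transcript and less transcript per cell cannot be told apart. A noncoding gene on the other strand, Gm39760, overlaps the 3′ end of Il2ra. The library kit keeps the strand, but the strand setting of the counting is not given in the sources used here. Gm39760 held 19 to 158 reads per library.

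TPM as deposited puts the median log2FC over the 12227 tested genes at -0.34, and scaling by the median of ratios puts it at 0.03. Some changes are therefore also given relative to that median. Il2ra was 2.22 below it. With median of ratios scaling the log2FC of Il2ra was -2.16, and with voom on the recovered reads it was -2.16. For Il7r, Il9r, Il10ra and Il1rl1 the log2FC after median of ratios scaling was -1.95, -0.71, 1.93 and -0.6.

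The 250 bases before the annotated start of Il2ra are shown because Il2ra is the receptor whose conditions do not overlap. The sequence is from RefSeq (table of GRCm38.p6), it was found once in GRCm39 at chr2:11647353-11647602 on the plus strand, and it ends at the base before the deposited gene start. Capitals mark a pair of overlapping matches to the NF-kB consensus, 201 to 191 bases before the start.
Il2ra upstream: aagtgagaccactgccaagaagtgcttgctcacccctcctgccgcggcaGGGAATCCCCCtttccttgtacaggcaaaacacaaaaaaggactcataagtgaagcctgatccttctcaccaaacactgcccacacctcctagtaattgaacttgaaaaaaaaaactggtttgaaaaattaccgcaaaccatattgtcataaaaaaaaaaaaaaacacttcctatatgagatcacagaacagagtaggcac
The RefSeq table had windows of this kind for 8 of the 10 receptors, 11 windows in all, and none for Il2rb and Il10ra. Both strands were searched for 3 motifs, chosen after the values, and a wider search of motifs in these windows, had been seen. The NF-kB consensus occurred in the window of Il2ra alone among the 8 genes and in 3.9% of all 32851 windows. The STAT motif TTCNNNGAA occurred in windows of Il7r and Il18r1 and in 7% of all windows, and GATAA in windows of Il9r and Il1rl1 and in 22.6% of all. A match is a run of letters and not evidence of binding.

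Il2rb, the signalling beta chain shared by IL-2 and IL-15, is on chromosome 15 (78363456 to 78396569, minus strand). It had 224, 216 and 433 TPM at 37°C and 382, 202 and 328 TPM at 26°C in replicates 1, 2 and 3. The conditions overlapped, and the direction differed between replicates, with a higher level at 26°C in replicate 1 and a lower one in replicates 2 and 3. The log2FC was 0.09 with an SE of 0.36. Il2rg, the common gamma chain on chromosome X (100307991 to 100311861, minus strand), had 834, 578 and 479 TPM at 37°C and 685, 710 and 499 TPM at 26°C. Its conditions overlapped as well, with a lower level at 26°C in replicate 1 and higher ones in replicates 2 and 3, and a log2FC of 0.02 with an SE of 0.29. After median of ratios scaling the values were 0.49 for Il2rb and 0.42 for Il2rg, and without replicate 3 they were 0.34 and 0.01. With 1 library left out they ranged from -0.10 to 0.42 for Il2rb and from -0.15 to 0.24 for Il2rg.

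The balance of the 3 chains can be read within a library, where scaling between libraries has no effect. At 37°C the Il2ra TPM was 6.08, 7.76 and 4.68 times the Il2rb TPM in replicates 1, 2 and 3. At 26°C the ratio was 0.856, 1.08 and 0.954, so the alpha and beta chain transcripts were at similar levels in each cold-acclimated library. Relative to Il2rg, Il2ra stood at 1.63, 2.89 and 4.23 at 37°C and at 0.477, 0.306 and 0.627 at 26°C. The ratio of Il2rg to Il2rb was 2.51 ± 1.32 at 37°C and 2.28 ± 1.08 at 26°C (SD, n = 3 each), which overlapped. Il15ra, the alpha chain of the IL-15 receptor, starts 11986 bases after the end of Il2ra on the same strand. It was listed at 30.8, 39.1 and 9.95 TPM at 37°C and at 35.6, 61.9 and 17.3 TPM at 26°C, with a log2FC of 0.53 (SE 0.60, limma adjusted p 0.56). Il15ra was higher at 26°C in each replicate number, and with the replicate number as a term its SE was 0.22 and its limma adjusted p 0.10.

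**Figure D2:**
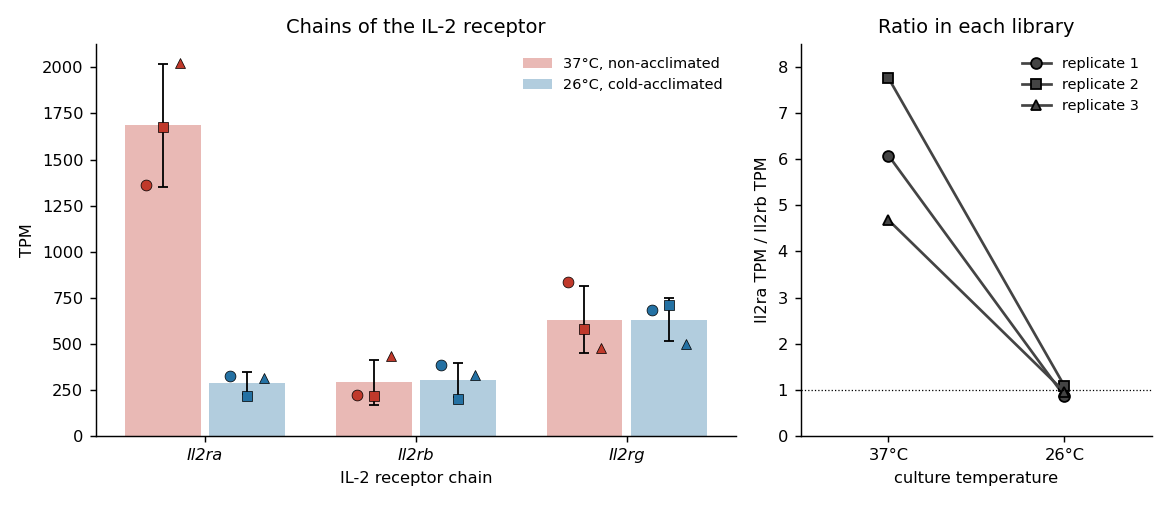
Left, TPM of the IL-2 receptor chains Il2ra, Il2rb and Il2rg at 37°C (red) and 26°C (blue), with bars for the mean, error bars for the SD (n = 3) and points for replicates 1 (circle), 2 (square) and 3 (triangle). Right, the ratio of Il2ra to Il2rb TPM in each library, with lines joining the same replicate number, which falls from 4.68 to 7.76 at 37°C to about 1 (dotted line) at 26°C.

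Among the chains that pair with the common gamma chain, Il4ra and Il21r are neighbours on chromosome 7, on the plus strand with 23777 bases between them (125151443 to 125178646 and 125202424 to 125232742). Il4ra, which binds IL-4 and is also part of the IL-13 receptor, had 441, 593 and 263 TPM at 37°C and 363, 434 and 131 TPM at 26°C. The cold-acclimated level was lower in each replicate number, although the conditions overlapped, and the log2FC was -0.58 with an SE of 0.50. Its level at 37°C was 1.21, 1.37 and 2.00 times that at 26°C in replicates 1, 2 and 3, so replicate 3 had the widest gap. Without replicate 3 the log2FC was -0.36, with 1 library left out it ranged from -0.90 to -0.04 (the latter without cold-acclimated replicate 3), and after median of ratios scaling it was -0.18. Il21r, the IL-21 receptor, was close to 0 beside it, with 0.051, 0.383 and 1.43 TPM at 37°C and 0, 0.0777 and 0.206 TPM at 26°C. It rested on 1, 9 and 49 reads at 37°C and on 0, 2 and 6 at 26°C, and the 0 allows a level of up to 0.121 TPM (3 reads, counting error only). Most of the Il21r reads were in replicate 3, and with a mean TPM under 1 the gene was not among those tested.

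Il7r, the alpha chain of the IL-7 receptor and part of the TSLP receptor, is on chromosome 15 (9505880 to 9530270, minus strand). It had 62.3, 123 and 4.05 TPM at 37°C and 13.0, 10.1 and 1.07 TPM at 26°C in replicates 1, 2 and 3. In each replicate number the cold-acclimated level was the lower one, by 4.79, 12.1 and 3.79 times. The conditions overlapped only through the non-acclimated library of replicate 3, whose 4.05 TPM lay below the cold-acclimated libraries of replicates 1 and 2. The mean of replicates 1 and 2 was 22.9 times replicate 3 at 37°C and 10.9 times at 26°C. The log2FC was -2.31, with an SE of 1.22 over the unpaired libraries, 0.41 with the replicate number as a term and 0.37 without replicate 3, where it was -2.83. With 1 library left out it ranged from -3.69 (without non-acclimated replicate 3) to -1.38 (without non-acclimated replicate 2). Crlf2, the other chain of the TSLP receptor, had 36.4 ± 9.44 TPM at 37°C and 44.2 ± 5.94 TPM at 26°C (log2FC 0.30, SE 0.26, limma adjusted p 0.46).

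The STAT motif of the Il7r window lies 142 to 134 bases before its annotated start, on the minus strand at chr15:9530086-9530114 of GRCm39, and is shown with 10 bases on each side, the motif in capitals. For Il9r, the GATAA match nearest to the RefSeq start is shown in the same way (minus strand, chr11:32150295-32150319), and it reads TTATC because it lies on the opposite strand. Both RefSeq starts lie within the deposited span of the gene.
Il7r motif: gttcaggagcTTCAGGGAAtaccaagatg
Il9r motif: ctcatctctcTTATCtcctggatca

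Il9r, the IL-9 receptor on chromosome 11 (32137544 to 32155283, minus strand), had 12.1, 6.85 and 35.8 TPM at 37°C and 3.88, 4.75 and 13.7 TPM at 26°C. Here replicate 3 was the highest at both temperatures, at 3.79 times the mean of replicates 1 and 2 without and 3.18 times with cold acclimation. The level was lower at 26°C in each replicate number, with ratios of 37°C to 26°C of 3.11, 1.44 and 2.61, and the conditions overlapped through the cold-acclimated library of replicate 3. The log2FC was -1.06, with an SE of 0.64, or 0.28 with the replicate number as a term. It was -0.94 without both libraries of replicate 3, -0.44 without the non-acclimated one and -1.56 without the cold-acclimated one or without non-acclimated replicate 2.

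Il10ra, the chain that binds IL-10, was the member whose level was higher at 26°C in each replicate number. It lies on chromosome 9 (45165135 to 45180447, minus strand) and had 16.0, 39.1 and 8.70 TPM at 37°C and 70.5, 126 and 17.3 TPM at 26°C. The cold-acclimated level was 4.40, 3.22 and 1.99 times the non-acclimated one. As for Il7r, the conditions overlapped through replicate 3, whose cold-acclimated 17.3 TPM lay between the non-acclimated values of the others. The log2FC was 1.55 with an SE of 0.77. It was 1.87 without both libraries of replicate 3 and ranged from 0.95 (without cold-acclimated replicate 2) to 2.34 (without cold-acclimated replicate 3) with 1 library left out. Il10rb, the second chain of the IL-10 receptor on chromosome 16 (91203166 to 91222718) and not a member of the set, was called downregulated. It fell from 23.4, 22.9 and 18.6 TPM to 8.42, 6.91 and 7.42 TPM, without overlap (log2FC -1.40, SE 0.24, limma adjusted p 0.011). The ratio of Il10ra to Il10rb was 0.684, 1.71 and 0.468 at 37°C and 8.37, 18.2 and 2.33 at 26°C, so Il10ra was the more abundant chain in every cold-acclimated library. Without non-acclimated replicate 1 or 2 Il10rb was not called, with an adjusted p of up to 0.06 in limma. The ligand gene Il10 had 365, 195 and 279 TPM at 37°C and 1418, 473 and 181 TPM at 26°C, and was higher at 26°C in replicates 1 and 2 and lower in replicate 3 (log2FC 0.87, SE 0.68, limma adjusted p 0.39).

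Il1rl1 and Il18r1 are members of the IL-1 receptor family and adjoin on chromosome 1, with 136 bases between them on the plus strand (40444105 to 40504575 and 40504712 to 40540014). Il1rl1 encodes ST2, the receptor chain for IL-33 that marks Th2 cells, and had 8.93, 36.8 and 1.38 TPM at 37°C and 3.64, 18.2 and 0.458 TPM at 26°C. In each replicate number the cold-acclimated level was lower, by 2.45, 2.03 and 3.02 times, although the spread between replicates was far larger than this. The mean of replicates 1 and 2 was 16.5 times replicate 3 at 37°C and 23.8 times at 26°C. The log2FC was -0.93, with an SE of 1.17, or 0.24 with the replicate number as a term. It was -1.04 without replicate 3. It was 0.06 without non-acclimated replicate 2, the library with the highest level, and -0.03 without cold-acclimated replicate 3. Its direction in the unpaired comparison was thus not stable. Both of these fits keep the same-numbered library of the other condition, so they cannot separate temperature from the level of the replicate.

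Il18r1, the chain that binds IL-18, was barely present, with 0, 0.167 and 0.0163 TPM at 37°C and 0.0454, 0.196 and 0 TPM at 26°C. These values are 0 to 9 reads per library, and the 0 values allow up to 0.0859 TPM in non-acclimated replicate 1 and 0.0577 TPM in cold-acclimated replicate 3. A difference between the temperatures was not detectable at this depth. Il18rap, the accessory chain of the same receptor, starts 14533 bases further on and is not a member. It had 14.2, 28.2 and 2.79 TPM at 37°C and 6.28, 20.8 and 1.58 TPM at 26°C (log2FC -0.68, SE 0.93, limma adjusted p 0.64). The accessory chain of the IL-18 receptor thus held 80 to 1153 reads per library, against the 0 to 9 of the binding chain. Il1r2, a decoy receptor for IL-1 at the start of the same gene cluster, had 5.59, 16.9 and 0.340 TPM at 37°C and 6.11, 48.6 and 0.437 TPM at 26°C. Il1r2, Il1rl1 and Il18rap shared an order of the replicates, with replicate 2 the highest and replicate 3 the lowest at both temperatures. Il4ra, Il10ra and Il15ra, on other chromosomes, had the same order, so it was not particular to this cluster. Il1r1, the signalling receptor for IL-1, was at most 0.297 TPM.

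**Figure D3:**
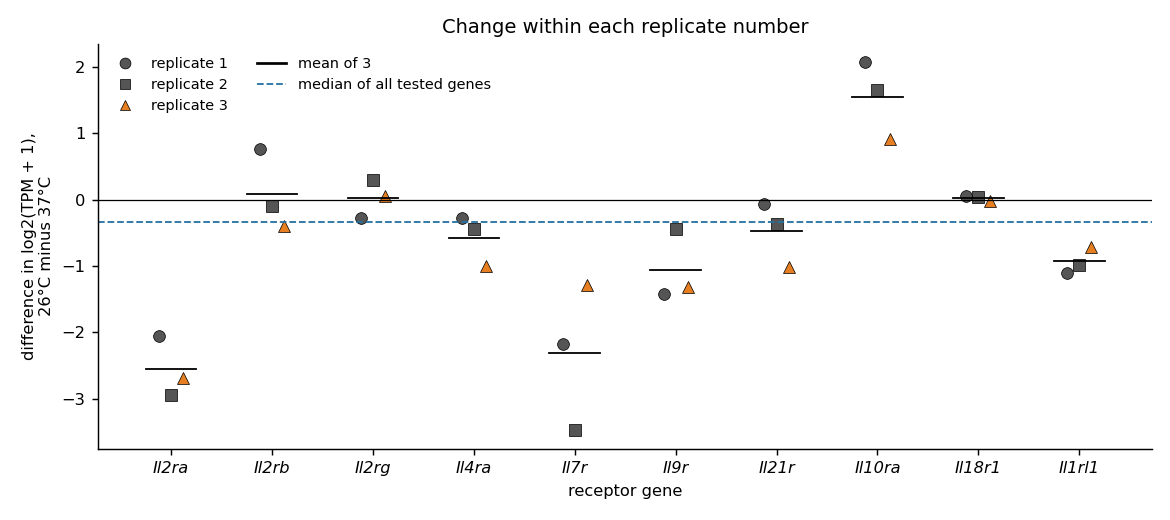
Difference in log2(TPM + 1), 26°C minus 37°C, within each replicate number for the 10 receptor genes, with a black bar for the mean of the 3 differences and a dashed line at the median log2FC of all tested genes (-0.34). Il2ra, Il4ra, Il7r, Il9r, Il21r and Il1rl1 are below 0 in all 3 replicate numbers and Il10ra is above 0 in all 3.

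Taking the set as a whole, 6 of the 10 receptors were listed lower at 26°C in all 3 replicate numbers and 1 higher, where Il21r counts through 1 read against 0 in replicate 1, a difference that this depth does not establish. Among the 12227 genes that averaged 1 TPM or more, 47.9% were lower and 18.2% higher in all 3. Of the 8 receptors that reached this mean, 5 were lower and 1 was higher, and Il21r and Il18r1 did not reach it. The conditions did not overlap for 1 receptor, Il2ra, which was lower, against 31.4% of all tested genes lower and 9.69% higher without overlap. The thresholds for a call were passed downwards by 16% of the tested genes and upwards by 2.63%. Il2ra passed, and the other 7 did not. With the replicate number as a term, Il2ra, Il7r and Il9r passed downwards and Il10ra upwards, beside 21.9% and 3.75% of all tested genes. Il9r reached the size threshold with TPM as deposited (log2FC -1.06) but not after median of ratios scaling (-0.71). Without the libraries of replicate 3, Il2ra and Il7r passed downwards and Il10ra upwards, beside 25.5% and 5.41%. The median log2FC of the 8 receptors was -0.75, which is 0.41 below the median of the tested genes. It was above that median by 0.11 without non-acclimated replicate 2 and by 0.36 without cold-acclimated replicate 3, so its direction in the unpaired fit changed with single libraries. Those fits keep the same-numbered library of the other condition, so they cannot separate temperature from differences between replicates. Without both libraries of replicate 3 the median of the receptors was -0.27 relative to that of all tested genes. Within replicate numbers it was below by 0.37, 0.01 and 0.61 in replicates 1, 2 and 3, so the distance was nearly nil in replicate 2. Since the receptors were chosen with these values known, their counts describe the set and test nothing.

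Another 37 chains of interleukin receptors, listed from general knowledge of the family, were not in the set. Of these, 17 averaged at least 1 TPM, and 8 were at 0 in all 6 libraries. The most abundant were Il27ra (158 ± 14.7 TPM at 37°C, 144 ± 20.3 TPM at 26°C), Il12rb1 (133 ± 24.0 and 62.2 ± 28.6) and Il17ra (82.8 ± 13.9 and 93.6 ± 5.97), which had limma adjusted p of 0.69, 0.071 and 0.58. One chain of the 17 was called upregulated (5.88%, beside 2.63% of all genes) and 2 were called downregulated (11.8%, beside 16%). Their median log2FC was -0.14, which is 0.20 above the median of the tested genes. The downregulated chains were Il10rb and Sigirr, an inhibitory member of the IL-1 receptor family, which fell from 57.0 ± 19.8 to 19.0 ± 6.19 TPM (log2FC -1.52, SE 0.34, limma adjusted p 0.022). The upregulated chain was Il20rb, part of the receptors for IL-19, IL-20 and IL-24, with 1.06, 0.884 and 1.31 TPM at 37°C and 2.75, 5.02 and 7.12 TPM at 26°C (log2FC 1.45, SE 0.35, limma adjusted p 0.029). Its values at 37°C rested on 18, 18 and 39 reads. Of its partner chains, Il20ra was at 0 in every library and Il22ra1 at no more than 0.0418 TPM. With the replicate number as a term, 4 chains were called downregulated, with Il12rb1 and Il17rb added, beside 21.9% of all tested genes. Sigirr was not called after median of ratios scaling (limma adjusted p 0.055) or without non-acclimated replicate 1 or 2 or cold-acclimated replicate 1, and Il20rb not without non-acclimated replicate 1 or 2 or cold-acclimated replicate 2.

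Of 11 genes for ligands of the 10 receptors, 5 averaged at least 1 TPM, and limma and voom called 0 of them, with 0 at an unadjusted p under 0.05. Without replicate 3, 1 was called downregulated, Il18, beside 25.5% of all tested genes. Il10 was the most abundant, followed by Il13 and Il4. Il13 had 54.5, 2.12 and 338 TPM at 37°C and 173, 2.30 and 171 TPM at 26°C, with a wide spread between replicates (log2FC 0.25, SE 2.00, limma adjusted p 0.94). Il4 had 52.4 ± 8.54 and 53.2 ± 16.5 TPM (log2FC -0.01, SE 0.28, limma adjusted p 0.98). Il2 was listed at no more than 0.244 TPM (2 reads) in any library and Il9 at 0 in all, so the transcripts of both ligands were at or near 0 in these cells.

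The 21 listed genes for kinases, STAT proteins and adaptors next to the receptors all averaged at least 1 TPM. Of them, 6 were called downregulated (28.6%, beside 16% of all tested genes) and 1 upregulated (4.76%, beside 2.63%), and their median log2FC was 0.08 above the median of the tested genes. After median of ratios scaling 4 were called downregulated and 3 upregulated, beside 8.79% and 6.63% of all genes tested at that scaling. The most abundant were Jak1 (372 ± 97.7 TPM at 37°C, 256 ± 69.7 TPM at 26°C), Jak3 (212 ± 65.5 and 247 ± 117) and Stat3, where Jak1 and Jak3 are the kinases that work with the common gamma chain receptors. Jak1 and Jak3 had limma adjusted p of 0.24 and 0.84. Irak4, the kinase next to MYD88, fell by 2.33 on the log2 scale (SE 0.33, limma adjusted p 0.0078). Tyk2, which serves the IL-10 receptor, fell by 1.41 (SE 0.26, limma adjusted p 0.013), and Ptpn11, a phosphatase that carries signals from cytokine receptors, by 1.15 (SE 0.25, limma adjusted p 0.021). Traf6, an adaptor downstream of the IRAK kinases, was the gene called upregulated, with 38.6 ± 9.69 TPM at 37°C and 113 ± 22.7 TPM at 26°C (log2FC 1.54, SE 0.28, limma adjusted p 0.012).

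Of the STAT genes next to the IL-2 and IL-4 receptors, Stat5b and Stat6 were called downregulated and Stat5a was not called. Stat5b had 44.0, 49.6 and 51.1 TPM at 37°C and 10.9, 10.5 and 26.9 TPM at 26°C (log2FC -1.66, SE 0.37, limma adjusted p 0.022). Stat5a, its neighbour and close paralogue on chromosome 11, had 43.3, 49.5 and 67.6 TPM at 37°C and 97.8, 121 and 91.6 TPM at 26°C. Its conditions did not overlap, and its log2FC of 0.95 (SE 0.25, limma adjusted p 0.036) was just under the size threshold, which it passed after median of ratios scaling (1.35) and without replicate 3 (1.21). How reads that match both genes were counted is not given in the sources used here. Stat6, the STAT of the IL-4 receptor, fell from 97.3 ± 18.6 to 34.5 ± 16.6 TPM (log2FC -1.55, SE 0.35, limma adjusted p 0.023). Stat3, which the IL-10 and IL-21 receptors use, had 169 ± 53.5 and 178 ± 24.6 TPM (log2FC 0.12, SE 0.29, limma adjusted p 0.80). Of the genes called here, Irak4 was called without any 1 of the 6 libraries. Tyk2, Ptpn11, Stat5b and Stat6 were not called without any 1 of replicates 1 and 2 of either condition, with limma adjusted p of up to 0.062, 0.091, 0.085 and 0.089, and Stat6 also not without non-acclimated replicate 3. Without any 1 library of replicates 1 and 2, downregulated calls over all genes fell from 1954 to between 332 and 599. Upregulated calls fell from 321 to between 59 and 79, so losing a call there was common. Stat4, the remaining gene called downregulated (log2FC -1.10, SE 0.32, limma adjusted p 0.049), was called in 1 of the 6 fits with a library left out and, like Ptpn11, not after median of ratios scaling. Traf6 was not called without non-acclimated replicate 2 or cold-acclimated replicate 1 or 2 (adjusted p of up to 0.059 in limma).

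**Figure D4:**
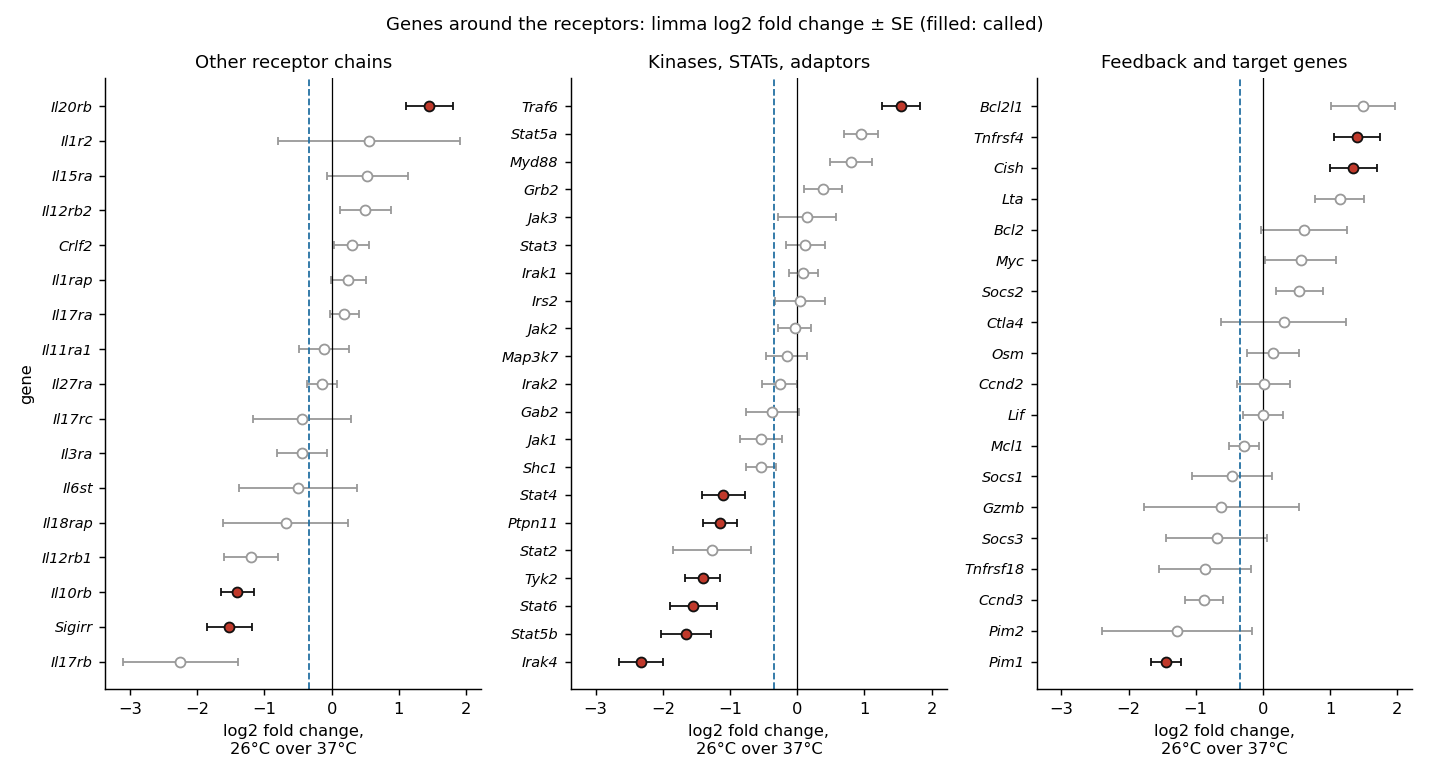
Limma log2FC (26°C over 37°C) with its standard error for the tested genes of 3 lists: other interleukin receptor chains, receptor-proximal kinases, STATs and adaptors, and feedback inhibitors and common gene targets of IL-2 and STAT5. Filled red points passed both thresholds, and the dashed line is the median of all tested genes (-0.34), with Irak4 at the lower and Traf6 at the upper end of the middle panel.

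Of 19 feedback inhibitors and common gene targets of IL-2 and STAT5, 2 were called upregulated (10.5%, beside 2.63% of all tested genes) and 1 downregulated (5.26%, beside 16%). Their median log2FC was 0.35 above the median of the tested genes. Cish, a feedback inhibitor of IL-2 receptor signalling, had 181, 109 and 257 TPM at 37°C and 528, 471 and 338 TPM at 26°C. It was higher at 26°C in every replicate number and without overlap (log2FC 1.34, SE 0.35, limma adjusted p 0.035), while Il2ra was lower in the same libraries. Tnfrsf4, the costimulatory receptor OX40, had 0.615 ± 0.396 TPM (2 to 15 reads) at 37°C and 3.25 ± 1.07 TPM at 26°C (log2FC 1.40, SE 0.34, limma adjusted p 0.029). Tnfrsf4 reached the mean of 1 TPM needed for testing only through the 26°C libraries, where it was high. Its call, 1 of the 2 upwards, is therefore not independent of that filter. Pim1, a survival kinase, fell from 203 ± 12.6 to 75.1 ± 11.5 TPM (log2FC -1.44, SE 0.22, limma adjusted p 0.0087). The list thus held genes called in both directions. The most abundant genes were Gzmb, a granzyme (7967 ± 6152 and 5033 ± 3796 TPM), Myc (401 ± 227 and 557 ± 275) and Cish, and Gzmb and Myc had limma adjusted p of 0.74 and 0.48. Gzmb was lower at 26°C in each replicate number (log2FC -0.62), and with the replicate number as a term its limma adjusted p was 0.03, with the size under the threshold for a call. With the replicate number as a term 4 of the list were called upregulated and 2 downregulated, beside 3.75% and 21.9% of all tested genes, and without replicate 3 the numbers were 6 and 2, beside 5.41% and 25.5%. Pim1 was called without any 1 of the 6 libraries, whereas Cish was not without any 1 of replicates 1 and 2 of either condition (adjusted p of up to 0.12 in limma), and Tnfrsf4 was called in 1 of the 6 fits with a library left out.

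The genes whose pattern was most like that of Il2ra were taken as the 5 with the highest Pearson's r in log2(TPM + 1) over the 6 libraries, among tested genes averaging at least 5 TPM. They were Men1 (r = 0.9993), B4galt3 (0.9976), Cep135 (0.9971), Rnf41 (0.9971) and Zfp524 (0.9962). Men1, which encodes menin, had 66.6, 74.0 and 83.1 TPM at 37°C and 23.2, 16.5 and 21.5 TPM at 26°C, with the replicates in the same order as for Il2ra in both conditions. The 6 libraries form 2 groups by temperature, so these values describe shape only and share the same libraries and scaling. The size of the change differed among them, with log2FC values of -1.83 for Men1, -0.59 for B4galt3, -0.64 for Cep135, -1.45 for Rnf41 and -2.04 for Zfp524. The other receptors of the set were not part of this ranking.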

How the data were processed

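Poly(A)+ RNA of 6 D10 libraries (3 at 26°C, 3 at 37°C) was sequenced. Per the methods and the submitters’ processing notes, the authors trimmed reads (Trimmomatic 0.38), aligned them to GRCm39 (HISAT2 2.1.0) and counted them per gene (featureCounts 1.6.3). The deposited values are TPM; the sources used here give no annotation release, strand setting or gene lengths. The reads behind them were recovered as whole multiples of each gene's TPM step (largest deviation 1.16e-10 reads). Since the deposited values are TPM, log2(TPM + 1) was fitted with limma 3.58.1 in R 4.3.3, allowing a trend of the variance with the level. This replaces the study's count model, which scaled libraries by the median of ratios. Fits with that scaling and on the recovered reads are among the alternatives. Genes averaging under 1 TPM were left out. Calls used p-values adjusted by Benjamini and Hochberg's method over all tested genes, below 0.05, together with a log2FC of 1 or more in either direction. The p-values set the difference between temperatures against the spread among these libraries, with variances moderated over all tested genes. In the unpaired fit that spread includes the differences between replicate numbers.

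The receptors, gene lists and tests were chosen with earlier results of these data known. The other 11 lists, written from general knowledge, hold 140 genes, all matched by symbol. A few further list genes are not reported here. Named were the 10 receptors, and from each other list on receptors, ligands or signalling the 3 genes of highest mean TPM and up to 4 called genes with the smallest adjusted p, plus the 5 genes most like Il2ra. Other named genes (partner chains such as Il15ra, Il18rap and Crlf2, the STAT genes other than Stat3, Il12rb1 and Il17rb as called genes, Il2, Il9, Il1r1, Il1r2, Gm39760 and markers) were chosen after their values were seen. Same-numbered libraries deviated together (r of 0.48 to 0.512), so a fit with the replicate number as a term is among the alternatives. The others were a pseudocount of 0.1, no filter, median of ratios scaling, voom on recovered reads, leaving out each library and, added after seeing the data, leaving out both libraries of replicate 3. Python 3.11.15 with pandas 2.3.3 and matplotlib 3.10.9 made the other values and plots.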

Additional observations from a re-analysis of the deposited data

How the results depend on the processing

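The numbers of genes called upregulated and downregulated were 321 and 1954. They were 184 and 1121 without a filter on low values, 807 and 1070 after median of ratios scaling, 767 and 1122 with voom on recovered reads, and 659 and 3107 without both libraries of replicate 3 (added once the data had been seen). With 1 library left out they ranged from 59 to 458 and from 332 to 2734. With the replicate block, the fit with the replicate number as a term, they were 458 and 2679. The share of calls that were upregulated was 14.1% with TPM as deposited and 43% after median of ratios scaling.

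Of the 17 other interleukin receptor chains tested, 1 was called upregulated and 2 downregulated. The number upregulated was 0 without a filter on low values and 0 to 1 with 1 library left out. The number downregulated was 1 after median of ratios scaling, 1 with voom, 4 with the replicate block and 0 to 3 with 1 library left out. The median log2 fold change of the 8 tested receptors relative to all tested genes, -0.41, ranged from -0.57 to 0.36 with 1 library left out and was above 0 without non-acclimated replicate 2 (0.11) or cold-acclimated replicate 3 (0.36). Of 96 values of single receptors under these alternatives, 92 moved by less than the gene's residual SD in the unpaired fit. That SD was wide where replicates differed, so this count does not show that the values were stable. Within it, Il1rl1 went from -0.93 to 0.06 without non-acclimated replicate 2. Il7r likewise went from -2.31 to -3.69 without non-acclimated replicate 3. The log2 fold change of Il2ra ranged from -2.71 to -2.38 with 1 library left out. Depth limits Il18r1 and Il21r.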
